A study of Mus musculus with 33 samples.

Results

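The Hoxc cluster is one of the 4 Hox clusters of the mouse. Its members here are the 9 genes Hoxc4, Hoxc5, Hoxc6, Hoxc8, Hoxc9, Hoxc10, Hoxc11, Hoxc12 and Hoxc13, and the data on them are the peaks of chromatin proteins that overlap a window of 125001 bp around them, chr15:102745000-102870000 in build mm9. The window held 289 of the 493022 peaks in 23 lists, counting pooled lists and the replicate lists of the same samples separately. The window was chosen by earlier results of these data, the width of the Menin peak it holds and the overlap of the factors there, so how strongly the window is covered is given as a description without a test.

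The samples were cultures of C2C12, an established mouse myoblast line. Proteins were mapped by ChIP-seq, in which DNA fragments bound to a protein are enriched with an antibody and sequenced, and stretches rich in fragments are listed as peaks. Myotubes, formed by confluent cells over 96 h (4 days) in 2% horse serum, gave lists for ING1 (3 replicates), Sin3A (2 replicates) and LSD1 (1 list). Growing myoblasts, kept in 10% fetal bovine serum, gave lists for ING1, Menin and MLL1 (2 replicates each), Wdr5 (3 replicates), and LSD1 and MLL3 (1 list each). In both states ING1 was captured by a Flag tag in puromycin-selected cells that carried a retroviral ING1 construct, so the tagged protein was added to what the cells make themselves; the other factors were captured in cells without that construct by antibodies to the proteins. Whether the ING1 line was 1 clone is not stated. No input or RNA-seq sample was analysed here, so neither the differentiation state nor the expression of the Hoxc genes was checked.

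Hox genes encode homeodomain transcription factors that set position along the body axis, and their order on the chromosome follows the order in which they are used, with Hoxc4 at the anterior and Hoxc13 at the posterior end of the series. Their active state is kept by trithorax proteins. MLL1 is such a protein, a histone H3 lysine 4 (H3K4) methyltransferase that works with Menin, which tethers it to chromatin, and with Wdr5, a core subunit of all MLL complexes. MLL3 is a relative that mainly adds the first methyl group at enhancers, LSD1 removes H3K4 methyl groups, and ING1 reads trimethylated H3K4 within Sin3 deacetylase complexes, for which Sin3A is the scaffold.

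Along the chromosome, in the RefSeq annotation of GRCm38.p6, the genes follow one another as Hoxc13, Hoxc12, Hotair, Hoxc11, Hoxc10, Mir196a-2, Hoxc9, Gm36878, Hoxc8, Gm29905, Hoxc6, Hoxc5, Mir615 and Hoxc4, 14 genes with all 9 members among them. Hotair is a long non-coding RNA first described in human cells as acting on the Hoxd cluster. No gene positions in mm9 were used here, so peaks are placed by coordinates and by whether they lie toward the Hoxc13 or the Hoxc4 end, and none is given to a gene. The cluster also carries the hairpins of 2 microRNA genes. In the order above, Mir196a-2 is listed after Hoxc10 and Mir615 after Hoxc5. That order does not show whether a hairpin lies between genes or inside one. The mature products of these microRNA genes are shown because they are short RNAs made from the cluster. Their sequences are from RefSeq (GRCm38.p6, chromosome 15, plus strand), 22 bases each, with the seed, bases 2 to 8, in capitals.
mmu-miR-196a-5p: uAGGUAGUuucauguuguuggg
mmu-miR-196a-2-3p: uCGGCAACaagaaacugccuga
mmu-miR-615-5p: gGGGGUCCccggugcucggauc
mmu-miR-615-3p: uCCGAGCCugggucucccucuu
The 4 seeds differ from one another. In the mouse, miR-196a pairs with the mRNA of Hoxb8, and a gene in the Hoxb cluster makes the same 5p product. No measurement of these RNAs was used here.

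Every one of the 9 pooled or single lists had peaks in the cluster, but they filled it to very different degrees. In myotubes the lists covered 8.93% of the window for ING1 (15 peaks), 6.34% for Sin3A (11 peaks) and 2.05% for LSD1 (4 peaks). In myoblasts they covered 63.0% for Menin (19 peaks), 43.3% for Wdr5 (31 peaks), 42.1% for MLL1 (21 peaks), 22.8% for MLL3 (23 peaks), 14.7% for ING1 (20 peaks) and 2.54% for LSD1 (8 peaks). Menin, MLL1 and Wdr5 thus lay over much of the cluster, while the LSD1 peaks were few and short, at most 806 bp in myotubes and 664 bp in myoblasts.

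The files hold no read counts, so sequencing depth is unknown, and the lists differ greatly in length. Genome-wide they ran from 4442 peaks for LSD1 in myoblasts to 218204 for MLL3, and replicate lists ran down to 126 peaks for ING1 replicate 3 in myotubes. To set each list against itself, the rest of the genome was divided into 21095 tiles as long as the window. Coverage at least as high as at Hoxc was found in 3 tiles (0.0142%) for ING1, 52 (0.247%) for Sin3A and 1231 (5.84%) for LSD1 in myotubes. In myoblasts it was found in 0 tiles (0%) for ING1, MLL1 and Wdr5, in 1 (0.00474%) for Menin, in 7 (0.0332%) for LSD1 and in 1038 (4.92%) for MLL3. Such tiles were thus most frequent for LSD1 in myotubes and for MLL3. In the replicate lists the share of such tiles was 2.89%, 0.559% and 100% for ING1 and 0.465% and 100% for Sin3A in myotubes, where 100% marks a list without a peak in the window, and 0.0995% and 0% for ING1 in myoblasts. It was at most 0.00474% (1 tile) in every MLL1, Menin and Wdr5 replicate. Coverage as high as at Hoxc was thus rare in all replicates of MLL1, Menin and Wdr5. In myotubes the rarity was less marked or absent in single lists of ING1 and Sin3A. The replicate lists come from the same samples as the pooled lists by which the window was chosen. The window was also set around the cluster, whereas the tiles only divide the genome, so the rarity is a description and no independent check.

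**Figure D1:**
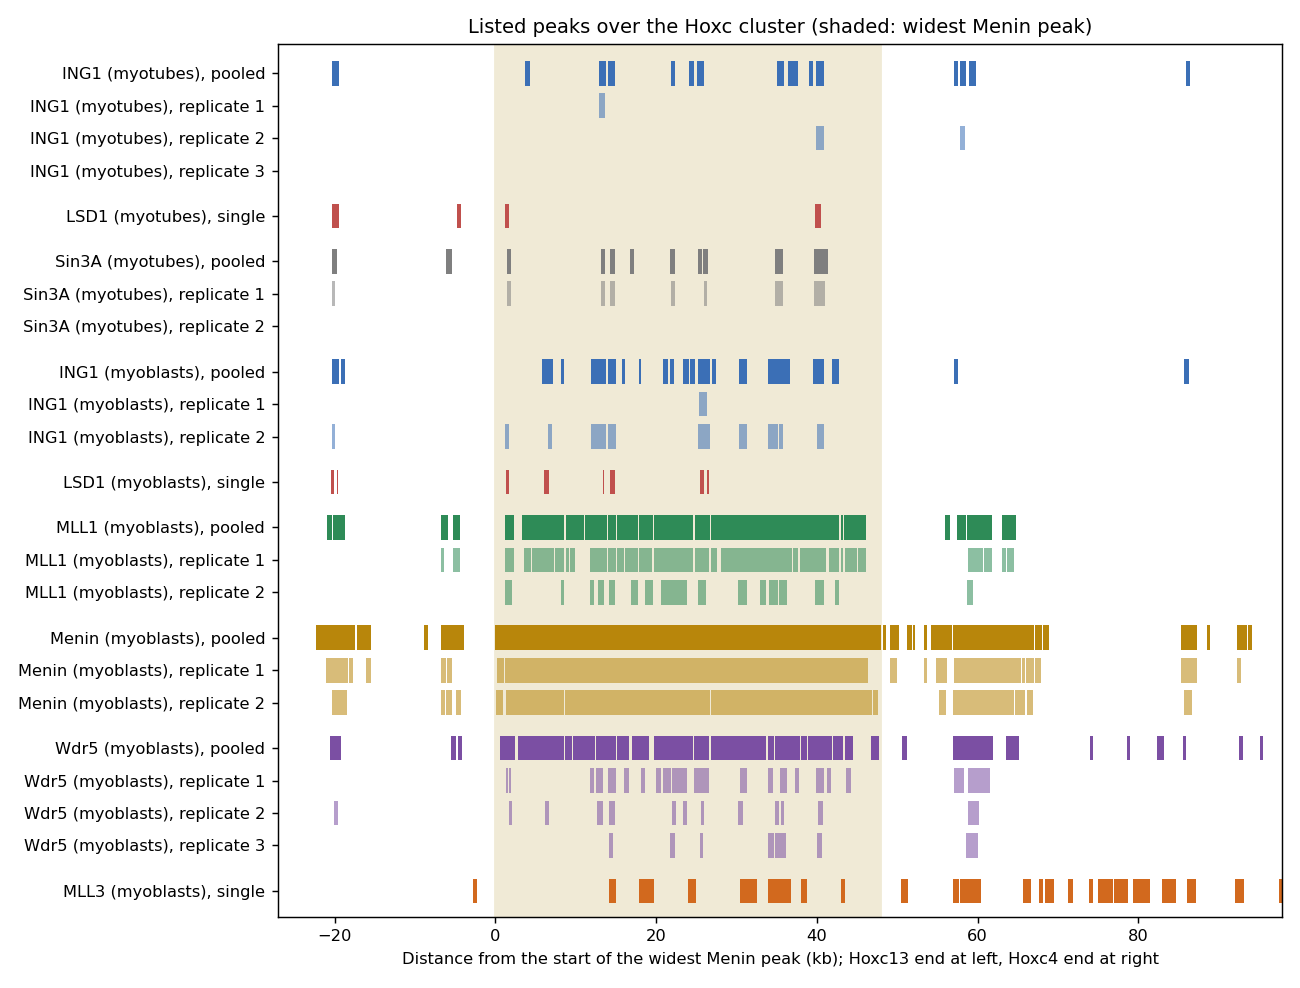
Peaks of the 23 lists over the Hoxc window, one row per list, with myotube lists above myoblast lists. The x axis is the distance in kb from the left end of the widest Menin peak (shaded), and each block is a listed peak drawn to scale. In the pooled lists Menin, MLL1 and Wdr5 fill all or most of the shaded stretch, while MLL1 replicate 2 and the Wdr5 replicates fill less of it. MLL3 has its densest peaks toward the Hoxc4 end, where Menin, Wdr5 and MLL1 also have peaks.

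The single feature that dominated the window was a Menin peak of 48033 bp, chr15:102772057-102820089, the widest in the whole Menin list; the next 2 were 33220 bp (chr6:52158998-52192217) and 30506 bp (chr15:85482648-85513153). It was found in both Menin replicates with little difference in extent. Replicate 1 listed most of it as 1 peak of 45174 bp (chr15:102773209-102818382) and covered 95.7% of it with 2 peaks. Replicate 2 covered 97.3% of it with 5 peaks, the widest 19977 bp long (chr15:102798925-102818901), separated by gaps of 125 to 331 bp. The split of the domain into pieces in replicate 2 thus rests on short gaps.

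In the pooled lists MLL1 and Wdr5 filled most of the same stretch as rows of shorter peaks rather than as 1 block. MLL1 had 13 peaks there, with 12 gaps of 100 to 891 bp (median 153 bp), 10 of them under 250 bp. Its widest peak, 10523 bp (chr15:102804296-102814818), was the widest of the whole MLL1 list, ahead of 8829 bp on chromosome 6. Wdr5 had 19 peaks with 18 gaps of 100 to 2345 bp (median 136.5 bp), 13 of them under 250 bp, and a widest peak of 5826 bp (chr15:102774833-102780658). Since the gaps are this small, the count of peaks in the stretch would change with the distance at which near peaks are joined, which is not given in the sources used here.

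The left edge of the domain was placed similarly by several lists. Menin began 248 bp inside it in replicate 1 and 88 bp inside in replicate 2. MLL1 began 1234 bp inside in replicate 1 and 1232 bp inside in replicate 2, and Wdr5 began 1294 bp inside in replicate 1 and 1695 bp inside in replicate 2. The first Wdr5 peak of replicate 3 lay 14169 bp inside. At the right edge the last peaks ended 1707 and 406 bp inside for the Menin replicates, 1867 and 5284 bp inside for the MLL1 replicates, and 3779, 7298 and 7367 bp inside for the Wdr5 replicates. In the pooled lists the last peaks ended 1877 bp inside for MLL1 and 328 bp inside for Wdr5. The right edge thus varied more between replicate lists than between the pooled ones, and both factors had further peaks on the Hoxc4 side, 4 for MLL1 and 9 for Wdr5. On the Hoxc13 side MLL1 had 4 and Wdr5 3 further peaks. Both edges were measured only from peaks that overlap the domain, so peaks beyond them did not enter.

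How much of the domain MLL1 and Wdr5 covered depended on the library. MLL1 covered 87.9% of it in the pooled list, but 79.0% in replicate 1 and 30.5% in replicate 2, which had 466 peaks genome-wide against 4131 in replicate 1. Wdr5 covered 86.6% in the pooled list, but 30.0%, 12.1% and 8.72% in replicates 1, 2 and 3. Over the whole window, MLL1 covered 34.8% in replicate 1 and 12.3% in replicate 2 (mean 23.6 ± 15.9, SD, n = 2), Menin 52.8% and 49.5% (51.2 ± 2.35, SD, n = 2), and Wdr5 14.8%, 6.25% and 4.46% (8.51 ± 5.53, SD, n = 3). In order of covered share, the replicate lists of Menin lay above both of MLL1, while those of MLL1 and Wdr5 overlapped. Each pooled list covered more of the window than the union of its replicates. For Wdr5 this was 43.3% against 17.0%, for Menin 63.0% against 54.8% and for MLL1 42.1% against 35.0%. For ING1 it was 8.93% against 1.90% in myotubes and 14.7% against 7.51% in myoblasts, and for Sin3A 6.34% against 4.16%.

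As a share of listed bases, the cluster weighed most in MLL1 among the lists. The window held 4.96% of all bases listed in MLL1 replicate 2 and 1.50% in replicate 1, a mean of 3.23% ± 2.45 (SD, n = 2). In peaks, it held 3.43% of the list in replicate 2 and 0.702% in replicate 1. The corresponding share of bases was 0.296% and 0.397% for the Menin replicates and 0.271%, 0.243% and 0.169% for the Wdr5 replicates. Every MLL1 replicate thus lay above every Menin and Wdr5 replicate on this measure, although MLL1 covered less of the window than Menin. The pooled lists held smaller shares of bases, 0.822% for MLL1, 0.114% for Menin and 0.118% for Wdr5. In peaks, the pooled shares of MLL1 (0.236%) and of ING1 in myoblasts (0.244%) were nearly equal, and the shares of bases fell with the length of the list for MLL1.

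**Figure D2:**
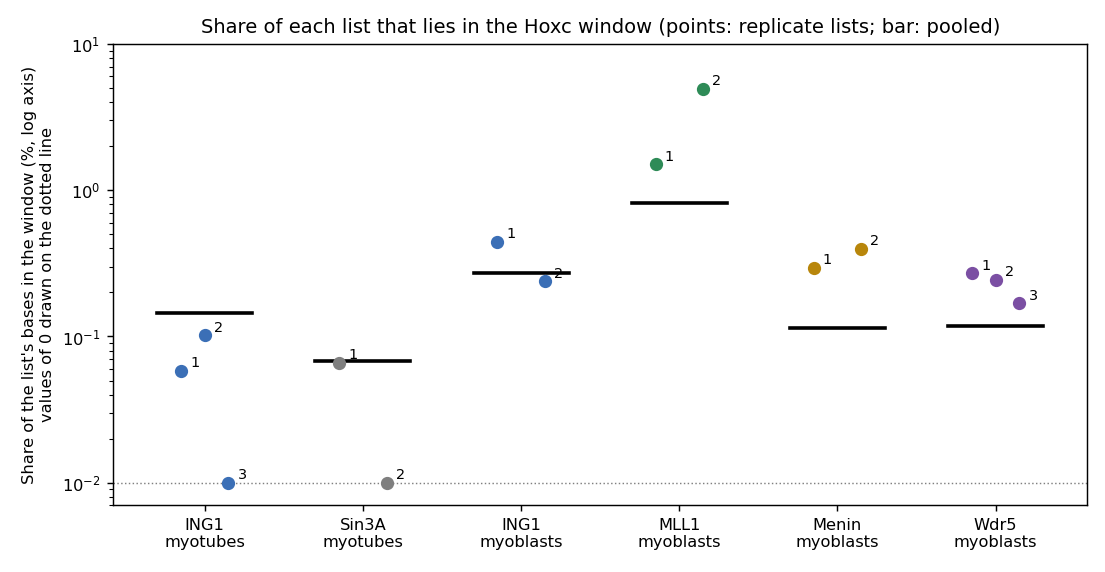
Share of each list's bases that lies in the Hoxc window, in percent on a log axis, for the 6 groups with replicates; points are replicate lists with their number, black bars the pooled list, and values of 0 sit on the dotted line. The 2 MLL1 replicates, at 1.50% and 4.96%, lie above all others, and the 3 ING1 lists of myotubes lie below the 2 of myoblasts.

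Peaks of the pooled lists were recovered in replicates to differing degrees. At least 1 replicate list met 17 of the 21 MLL1 peaks (81.0%, against 40.5% over the whole list), 12 of the 19 Menin peaks (63.2%, against 28.9%), 15 of the 31 Wdr5 peaks (48.4%, against 16.8%) and 8 of the 11 Sin3A peaks (72.7%, against 63.4%). ING1 went the other way, with 3 of 15 peaks in myotubes (20.0%, against 32.7%) and 8 of 20 in myoblasts (40.0%, against 58.4%). Peak widths were not matched in these shares. For the ING1 lists most pooled peaks of the cluster thus have no counterpart in any single replicate, and only 1 pooled peak, in myoblasts, was met by every replicate of its group.

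MLL1, Menin and Wdr5 shared most of their bases in the cluster. Of the Menin-covered bases, 66.7% also lay under MLL1 (7.46% genome-wide) and 65.1% under Wdr5 (23.7% genome-wide). In the other direction, 99.8% of the MLL1-covered bases lay under Menin (80.5% genome-wide). Of all window bases, 63.0% lay under Menin, 42.1% under MLL1 and 43.3% under Wdr5, which the genome-wide values do not take into account. With single replicate lists of the partner in place of its pooled list, the shares of Menin bases were 55.1% and 19.5% for MLL1 (37.3 ± 25.1, SD, n = 2) and 23.5%, 9.91% and 7.07% for Wdr5 (13.5 ± 8.78, SD, n = 3). These values have no like genome-wide value, since genome-wide shares were computed from the pooled lists only. The pooled Wdr5 list holds 46.0 Mb, against 6.83, 3.21 and 3.30 Mb in replicates 1, 2 and 3. Whether single Wdr5 lists overlapped Menin more in the window than genome-wide was therefore not tested. With either MLL1 replicate the share was above the 7.46% of the pooled lists. The size of the overlap depended on the list used, most of all for Wdr5.

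The domain divides the window into 3 stretches, 27057 bp on the Hoxc13 side, the domain itself and 49911 bp on the Hoxc4 side. ING1 in myotubes covered 3.24% of the Hoxc13 side, 15.7% of the domain and 5.54% of the Hoxc4 side, and Sin3A covered 4.86%, 13.8% and 0%. In myoblasts ING1 covered 4.82%, 33.0% and 2.32%, MLL1 14.5%, 87.9% and 13.0%, and Wdr5 8.47%, 86.6% and 20.5% of the same stretches. These lists were densest inside the Menin domain. The window was chosen by the width of that Menin peak and the overlap of the factors there, so this is a description only. Menin itself covered 36.6% of the Hoxc13 side and 41.8% of the Hoxc4 side. MLL3 covered 1.70%, 20.7% and 36.3%, so its own peaks were densest toward Hoxc4, where Menin covered more than MLL3. LSD1 was low in all, at 4.85%, 2.60% and 0% in myotubes and 2.33%, 5.28% and 0% in myoblasts.

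**Figure D3:**
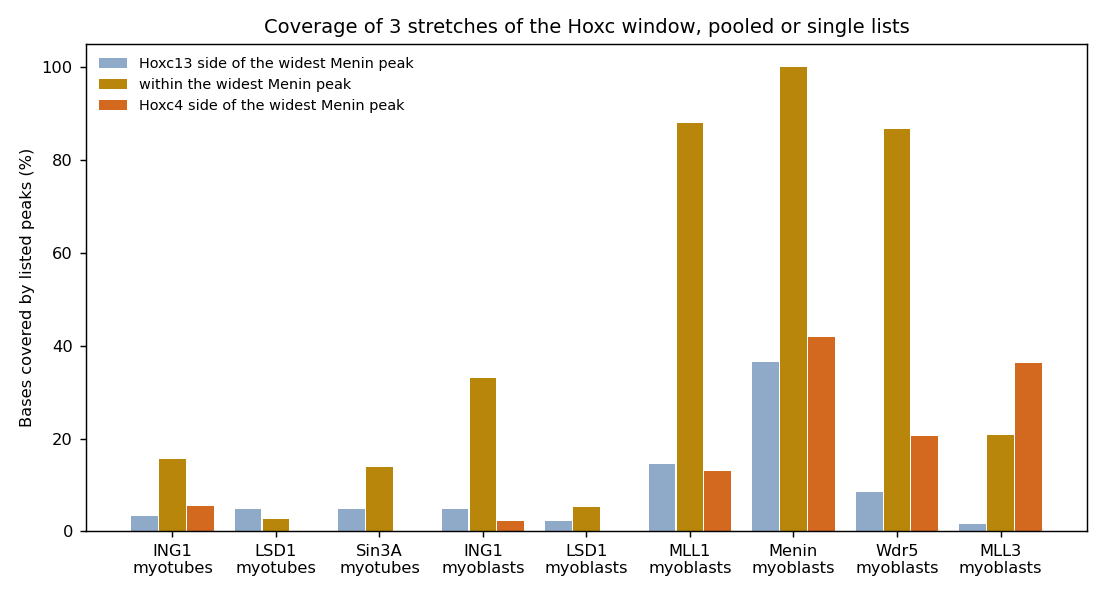
Percent of bases covered by each pooled or single list on the Hoxc13 side of the widest Menin peak, within it and on its Hoxc4 side. Among the lists other than Menin, the bar within the peak is the tallest in 6 of 8; it is not for MLL3, where the Hoxc4 side is higher (36.3% against 20.7%), nor for LSD1 in myotubes, where the Hoxc13 side is (4.85% against 2.60%).

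A part of the MLL3 bases lay under no other list. MLL3 had 23 peaks in the window, with 28516 bases, of which 10075 (35.3%) lay under no other list. No genome-wide value of this share was computed. The other lists left free these 10075 bases and a further 33247 of the 125001 window bases. Much of the window was thus free of them as well, and whether MLL3 lay apart from them was not tested. Of the MLL3 bases, 59.8% lay under Menin in the window (7.09% genome-wide) and 49.5% under Wdr5 (3.73% genome-wide). The overlap was higher in the window for every other list except LSD1 of myotubes (0%, against 1.51% genome-wide). Menin covered 63.0% and Wdr5 43.3% of all window bases, which the genome-wide values do not take into account. All 9962 MLL3 bases within the Menin domain lay under another list, since the domain is itself a Menin peak. On the Hoxc4 side 9615 of 18094 MLL3 bases (53.1%) lay under none. How much of that side the other lists left free was not computed. The widest MLL3 peak there outside all others was 2120 bp (chr15:102851447-102853566). A stretch of 4197 bp, chr15:102846420-102850616, was free of every other list and 84.4% covered by MLL3, and a stretch of 5100 bp, chr15:102840907-102846006, was 26.5% covered. The Hoxc13 side held the longest stretch without a peak of any list, 6665 bp at chr15:102756542-102763206.

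The other 2 of the 3 widest MLL3 peaks coincided with other factors. The widest, 2851 bp at chr15:102805964-102808814, lay wholly under MLL1 and Menin, and 96.0% of it lay under ING1 of myoblasts. The next, 2642 bp at chr15:102829831-102832472, lay wholly under Menin and Wdr5 and to 93.6% under MLL1. Over the window, 42.3% of the MLL3 bases lay under MLL1, against 0.373% genome-wide. MLL1 covered 42.1% of all window bases, so the share for MLL3 was close to that of the window as a whole. MLL3 had 1 list, so none of its peaks has a replicate check.

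Places where many lists met were short and mostly inside the domain. Of the window, 26.6% lay under no list, and 5.34% (6680 bp) lay under at least 6 of the 9 lists, in 13 segments of 3 to 1061 bp. The domain held 10 of them, with 2 on the Hoxc13 side and 1 on the Hoxc4 side (chr15:102829496-102829649, 154 bp). No genome-wide value of this measure was computed. The domain is itself a Menin peak, and MLL1 and Wdr5 covered 87.9% and 86.6% of it. These counts do not take that coverage into account, so the place of the segments is a description only. No base lay under all 9 lists. With each group's replicates joined instead of the pooled lists there were 9 such segments, and 5 when Sin3A replicate 1 was also left out, 7 without ING1 replicate 2 of myoblasts, and 8 without MLL1 replicate 1 or Wdr5 replicate 1. The segment at chr15:102751772-102752555 (784 bp), about 20 kb on the Hoxc13 side of the domain, was touched by every list but MLL3. The segment at chr15:102786156-102787002 (847 bp) was touched by every list but LSD1 of myotubes.

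A further 4 segments were touched by 7 lists. At chr15:102811891-102812951 (1061 bp) these were all but LSD1 of myoblasts and MLL3, and at chr15:102806872-102807928 (1057 bp) all but both LSD1 lists. At chr15:102797294-102798075 (782 bp) and chr15:102785177-102785649 (473 bp) LSD1 of myotubes and MLL3 were missing. The remaining 7 were touched by 6 lists. They comprised, in the domain, chr15:102773487-102773773, chr15:102793908-102794328, chr15:102796253-102796679, chr15:102798368-102798579 and chr15:102808529-102808700, besides the 154 bp on the Hoxc4 side and 3 bp at chr15:102751756-102751758. MLL1, Menin and Wdr5 touched all 13, so what varied between segments was which of ING1, LSD1, Sin3A and MLL3 was present.

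The replicate lists, which come from the same samples as the pooled ones, met most often at part of these sites. The highest count was 10 of the 14 replicate lists, reached only at chr15:102812159-102812722 (564 bp), inside the 1061 bp segment. There peaks of ING1 replicate 2 and Sin3A replicate 1 in myotubes met peaks of ING1 replicate 2, both MLL1, both Menin and all 3 Wdr5 lists in myoblasts. At least 8 replicate lists met in 8 places, all of them in the domain, and these overlapped 7 of the 13 segments. The Menin replicates covered 95.7% and 97.3% of the domain, which these counts do not take into account. Of the other segments in the domain, those at chr15:102796253-102796679 and chr15:102808529-102808700 were touched by 3 replicate lists each and that at chr15:102798368-102798579 by 7. On the Hoxc4 side the replicate lists had no such place, and the segment on the Hoxc13 side that was touched by 8 of the 9 pooled or single lists was touched by 5 replicate lists.

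**Figure D4:**
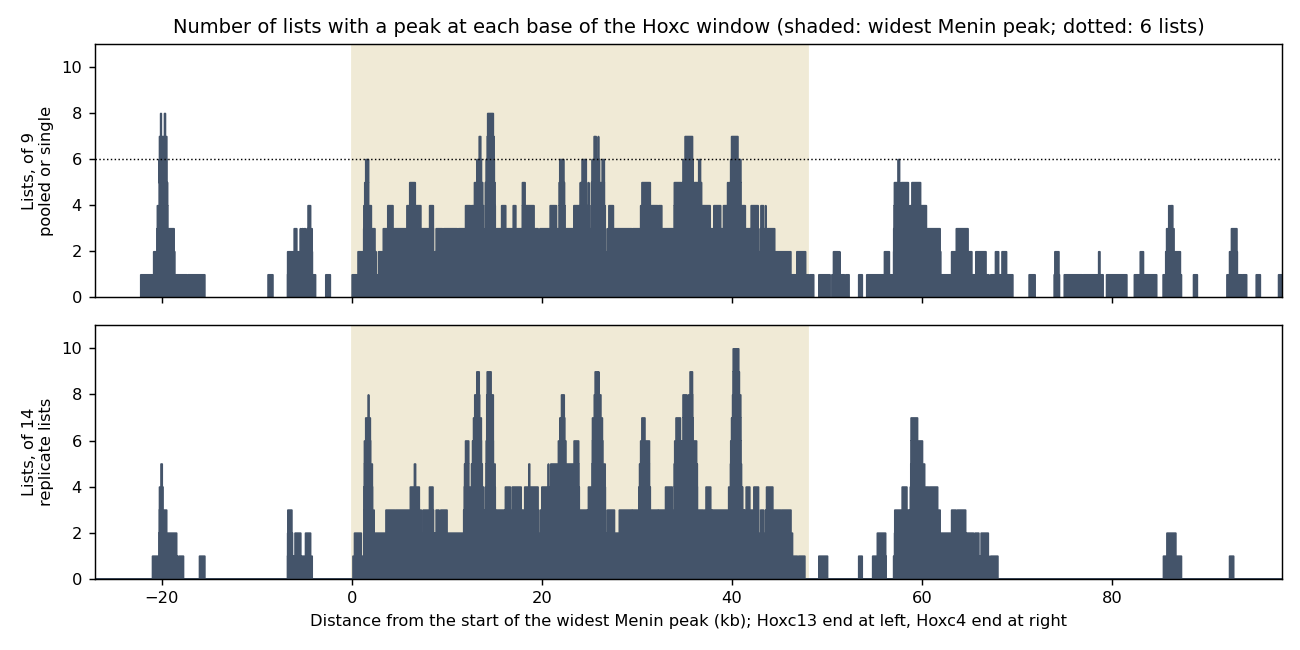
Number of lists with a peak at each base of the Hoxc window, for the 9 pooled or single lists (top, with a dotted line at 6) and the 14 replicate lists (bottom), against the distance in kb from the left end of the widest Menin peak (shaded). The highest counts are 8 of 9 lists, reached on the Hoxc13 side and inside the shaded stretch, and 10 of 14 replicate lists, reached inside it.

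ING1 was the only factor with replicate lists in both states. In the pooled lists it covered 8.93% of the window in myotubes and 14.7% in myoblasts. Its widest peaks were 1190 bp (chr15:102808529-102809718) in myotubes, and 2760 bp (chr15:102805941-102808700) and 1867 bp (chr15:102783992-102785858) in myoblasts. Of the 15 myotube peaks, 12 met a myoblast peak (80.0%, exact binomial 95% interval 51.9 to 95.7, against 62.1% of the whole list). Of the 20 myoblast peaks, 10 met a myotube peak (50.0%, interval 27.2 to 72.8, against 72.0% of the whole list). In both directions the value of the whole list lies within the interval, which covers counting error only and treats neighbouring peaks as independent. With each group's replicates joined instead of the pooled lists, 2 of 10 myoblast peaks (20.0%) met a myotube peak. The joined myotube lists had only 3 peaks in the window, and no share over the whole joined lists was computed. Within the domain, 9 of 10 myotube peaks met a myoblast peak and 7 of 16 myoblast peaks met a myotube peak.

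The myoblast peaks of the domain without a myotube peak included the third widest, 1454 bp at chr15:102777820-102779273. It was met by LSD1 of myoblasts, MLL1, Menin and Wdr5, and by no myotube list. The Hoxc4 side had few ING1 peaks, of which 2 of 4 myotube peaks met a myoblast peak and both myoblast peaks met a myotube peak. Neither of these myoblast peaks was met by an ING1 replicate list of myoblasts. One myotube peak without a myoblast peak was 898 bp wide (chr15:102830962-102831859) and lay wholly under MLL1, Menin, Wdr5 and MLL3 of myoblasts. No ING1 replicate list of myotubes met it.

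The replicate lists of ING1 did not separate the states beyond what 5 lists allow. They covered 0.618%, 1.28% and 0% of the window in myotubes (mean 0.633 ± 0.641, SD, n = 3), against 0.821% and 7.51% in myoblasts (4.17 ± 4.73, SD, n = 2). The difference was -3.53 percentage points, with an exact two-sided permutation p of 0.4 and an adjusted p of 0.6 over 3 measures by Benjamini and Hochberg. The ranges of the states overlapped, and 1 myoblast library, replicate 2, held the high value. In number, the lists had 1, 2 and 0 peaks in myotubes, against 1 and 10 in myoblasts, a difference of -4.5 peaks (exact permutation p = 0.6, adjusted p = 0.6). Without myoblast replicate 2 the difference in peaks was 0 and that in covered share was -0.188 percentage points.

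The share of listed bases was the one measure whose ranges did not overlap. It was 0.0584%, 0.102% and 0% in myotubes (0.0535 ± 0.0513, SD, n = 3), against 0.445% and 0.239% in myoblasts (0.342 ± 0.146, SD, n = 2). The difference was -0.288 percentage points (exact two-sided permutation p = 0.2, adjusted p = 0.6), and 0.2 is the smallest p that the 10 arrangements of 3 and 2 lists can give, so no difference in this design could pass 0.05. The 0 comes from myotube replicate 3, with 126 peaks in all; the lists also differed in length within myoblasts, 428 peaks in replicate 1 and 5528 in replicate 2. Nothing in the labels says that replicates were separate cultures, so these p-values measure only the spread between these samples. The share also moved with list length within a group, since the shorter myoblast list had the higher value, and the part of list length in the difference was not tested.

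LSD1 had 1 list per state and so no test. It covered 2.05% of the window in myotubes and 2.54% in myoblasts, a difference of -0.486 percentage points. Whereas the myotube list was the longer genome-wide, with 16504 peaks against 4442 in myoblasts, the window held 4 myotube and 8 myoblast peaks. Of the 4 myotube peaks, 2 met a myoblast peak (50.0%, interval 6.76 to 93.2, against 11.5% of the list). Of the 8 myoblast peaks, 3 met a myotube peak (37.5%, interval 8.52 to 75.5, against 45.1%). With the myotube list held to its 4442 widest peaks, a choice made after the data were seen, it had none in the window and the difference was -2.54 percentage points.

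In the domain the myotube list had 2 peaks (2.60%) and the myoblast list 6 (5.28%), 1 of which met a myotube peak. The myotube peak of 749 bp at chr15:102811891-102812639 had no myoblast counterpart, and neither did the myoblast peaks of 664 bp at chr15:102786321-102786984 and 565 bp at chr15:102778118-102778682 have one in myotubes. The widest myotube peak, 806 bp at chr15:102751750-102752555 on the Hoxc13 side, was 54.7% covered by the myoblast list. All 4 myotube peaks met an MLL1 peak of myoblasts (11.0% over the whole list), and so did all 8 myoblast peaks (37.6% over the whole list). MLL1 itself covered 42.1% of the window, against a mean of 0.241% of the genome tiles, which these shares do not take into account.

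Sin3A was mapped in myotubes alone, and its presence rests on 1 replicate. Replicate 1 had 8 peaks covering 4.16% of the window, while replicate 2, with 430 peaks genome-wide, had 0 (mean 2.08 ± 2.94, SD, n = 2). The widest pooled peak, 1735 bp at chr15:102811681-102813415, held the site where 10 replicate lists met, and the next were 988 bp at chr15:102806872-102807859 and 734 bp at chr15:102786269-102787002. ING1 and Sin3A belong to the same complex, yet in myotubes only 7 of the 15 ING1 peaks met a Sin3A peak (46.7%, against 79.7% of the whole ING1 list), and 8 of the 11 Sin3A peaks met an ING1 peak (72.7%, against 52.5% of the whole Sin3A list). In bases, 39.9% of what ING1 covered in the window lay under Sin3A, against 70.1% genome-wide.

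Against MLL1, ING1 stood the other way. In myoblasts 19 of the 20 ING1 peaks met an MLL1 peak, against 37.9% of the whole ING1 list, and 11 of the 21 MLL1 peaks met an ING1 peak, against 34.5% of the whole MLL1 list. In bases, 92.2% of what ING1 covered lay under MLL1 (30.5% genome-wide) and 32.1% of what MLL1 covered lay under ING1 (32.4% genome-wide). The share of MLL1 bases under ING1 was thus close to that of the whole list, while MLL1 covered the ING1 bases nearly completely. MLL1 covered 42.1% of the window and 87.9% of the domain, which held 16 of the 20 ING1 peaks. The genome-wide shares do not take this coverage into account. For ING1 in myotubes 89.9% of the bases lay under MLL1 of myoblasts (25.8% genome-wide), a comparison across states.

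The other Hox clusters were measured in windows of the same length, placed from general knowledge of where they lie in mm9 and not checked against an annotation; that for Hoxb leaves out Hoxb13. Menin covered 63.0% at Hoxc, 43.6% at Hoxa, 3.57% at Hoxb and 0% at Hoxd. MLL1 covered 42.1%, 28.8%, 0.714% and 0%, and Wdr5 43.3%, 28.9%, 5.10% and 0.798% of the same windows. Hoxc and Hoxa were thus both rich in these proteins and Hoxb and Hoxd nearly bare. MLL3 was different, with 22.8% at Hoxc, 9.86% at Hoxa, 43.6% at Hoxb and 23.1% at Hoxd.

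Hoxc was the most covered of the 4 windows in 7 of the 9 lists. The exceptions were MLL3, highest at Hoxb, and Sin3A in myotubes, at 6.34% at Hoxc and 8.34% at Hoxa. ING1 covered 8.93% at Hoxc and 5.61% at Hoxa in myotubes, and 14.7% at Hoxc and 9.08% at Hoxa in myoblasts, and had no peak at Hoxb or Hoxd in either state. The lead of Hoxc over Hoxa was present in both Menin replicates (52.8% and 49.5% at Hoxc, 38.4% and 36.5% at Hoxa). For MLL1 it was present in replicate 1 (34.8% at Hoxc, 24.4% at Hoxa) but not in replicate 2 (12.3% at Hoxc, 12.6% at Hoxa). For Wdr5 the gap was small in replicate 1 (14.8% at Hoxc, 12.4% at Hoxa) and replicate 2 (6.25% at Hoxc, 5.86% at Hoxa), and the order was the opposite in replicate 3 (4.46% at Hoxc, 5.46% at Hoxa). Each cluster is 1 locus, so these differences have no test.

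**Figure D5:**
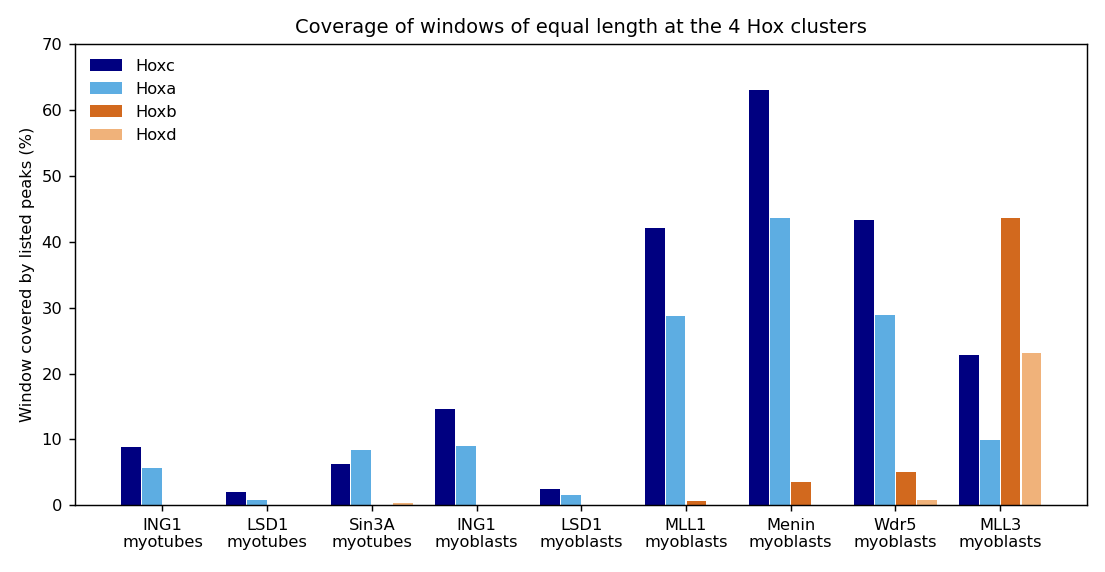
Percent of windows of equal length at the Hoxc, Hoxa, Hoxb and Hoxd clusters covered by each pooled or single list. Menin, MLL1 and Wdr5 are high at Hoxc and Hoxa and near 0 at Hoxb and Hoxd, whereas MLL3 is highest at Hoxb (43.6%).

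The ends of the window cut through few peaks. On the Hoxc13 end the outermost peak inside was a Menin peak that began 4810 bp from the edge, and the nearest outside was a Wdr5 peak 3380 bp away. On the Hoxc4 end a MLL3 peak ran across the edge to position 102870267, the next MLL3 peak began 460 bp outside, and the nearest Wdr5 peak outside began 5396 bp away. MLL3 peaks thus went on past the Hoxc4 end, while the nearest Menin peak outside that end lay 53775 bp away and the nearest MLL1 peak 106742 bp away.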

How the data were processed

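The deposited values were peak boundaries in base pairs, given by the authors per chromosome, with no score, height or read count used here. Per the submitters' processing notes, the tools included bedtools 2.17.0, SAMtools 0.1.19 and Bowtie 0.12.9, and the builds NCBIM37 and mm9. What each tool did, which program called peaks at which threshold, and how pooling was done is not given in the sources used here. Of 33 labelled samples, the 17 ChIP samples were used, as 6 pooled, 3 single and 14 replicate lists; the 6 RNA-seq and 10 input samples were not analysed here. Sample labels were followed where they differ from other text: Sin3A is labelled as myotubes although the design text names myoblasts, and MLL1 follows the title and antibody, since its source field names Menin.

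Deposited left ends were taken to count from 0, and printed starts count from 1. Peaks shared a site when they overlapped by at least 1 bp. Coverage counts bases under any peak of a list within the window. The members and lists were chosen with earlier results of these data known. Named regions are the 3 widest peaks of each pooled or single list in the window, the replicate peaks that overlap the widest Menin peak most, all segments under at least 6 of 9 lists, and stretches free of every list but MLL3; the other positions printed, such as that of the 10 replicate lists and the window's edges, were chosen after their values were seen. Replicate lists of ING1 were compared by exact two-sided permutation of the difference in means, with Benjamini-Hochberg adjustment over 3 measures; intervals on shares are exact Clopper-Pearson 95% intervals. Python 3.11.15, NumPy 2.4.6 and SciPy 1.17.1 were used, and the overlap code was tested on simulated data. Alternatives were unions of replicate lists, the wider 50% of each list, a 50% overlap, a window widened by 25 kb on each side, other list counts for segments, omission of each replicate, a replicate block and, added after seeing the data, lists of equal length for ING1 and LSD1.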

Additional observations from a re-analysis of the deposited data

How the results depend on the processing

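Of 113 alternative values, 48 moved and 0 took the opposite sign. The other 65 count as unmoved by differing rules. Values without a test moved by less than 1 SD of the replicate lists (or their counting interval), and counts by at most 1.5 times. The 3 ING1 differences, none past the threshold of 0.05, needed only to stay on that side without a change of sign. With so few lists no p could pass it, so only a change of sign could have counted. The size of the ING1 differences ran widely (to 0 for peaks). With unions of the replicate lists, the window was covered to 1.90% by ING1 in myotubes and 7.51% by ING1 in myoblasts. Menin covered 54.8% and Wdr5 17.0%, and 31.0% of the Menin bases lay under Wdr5. In these unions 2 of 10 ING1 myoblast peaks (20.0%) met a myotube peak. With the wider 50% of each list, the covered share was 6.36% for ING1, 1.24% for LSD1 and 2.77% for Sin3A in myotubes, and 1.75% for LSD1 and 20.7% for MLL3 in myoblasts, and 6 segments lay under 6 lists. A minimum of 7 lists left 7 segments. In the window widened by 25 kb on each side, coverage was 6.38% for ING1 and 1.46% for LSD1 in myotubes, and 1.81% for LSD1, 45.0% for Menin, 33.3% for Wdr5 and 26.8% for MLL3 in myoblasts, and the LSD1 difference was -0.347 percentage points. With LSD1 lists of equal length it was -2.54.

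Leaving out 1 replicate at a time, from unions of the others, moved coverage to 0.618 to 1.90% for ING1 in myotubes, 0 to 4.16% for Sin3A, 0.821 to 7.51% for ING1 in myoblasts, 12.3 to 34.8% for MLL1, 49.5 to 52.8% for Menin and 7.79 to 16.6% for Wdr5. The share of Menin bases under MLL1 ran between 22.4 and 69.9% (lowest without MLL1 replicate 1). That under Wdr5 ran between 14.2 and 34.3% (lowest without Wdr5 replicate 1). The share of ING1 myoblast peaks met by a myotube peak ran between 0 and 20.0%, and the segments between 5 and 9. That 0% was 0 of 1 peak, without ING1 replicate 2 of myoblasts, and the 20.0% was 2 of 10. The ING1 differences, myotubes minus myoblasts, ran between -6.88 and -0.188 points for coverage, -9.00 and 0 for peaks and -0.391 and -0.185 points for the share of listed bases. With a replicate block on numbers 1 and 2 these were -3.22, -4.00 and -0.262, and no p was computed for the block. The labels do not say that equal numbers mark a shared batch. Over genome tiles, deviations of equal numbers had an r of -0.0154 for number 1 and 0.0208 for number 2. The 2 myoblast lists deviate from their mean by equal and opposite amounts. Unequal numbers therefore gave the same sizes with the other sign (0.0154 and -0.0208). These values cannot show whether equal numbers shared a batch. Depth is unknown, and no list gives peak heights, so weak binding below each list's unknown threshold cannot be seen.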
